A study of Vitis vinifera with 16 samples.

Results

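Flavonoids, proanthocyanidins, anthocyanins and stilbenes are phenolic products of one branching route. A search for that route by description found 78 genes among the 13411 genes of a grape ovule expression table. Some, such as the genes described as 2-hydroxyisoflavanone dehydratases, match by a word and may lie outside the route. F3H, an abundant gene of the route, was not found by the search. The genes were taken by a search of the table's protein descriptions for chalcone, flavanone, flavonoid 3, flavonol synthase, dihydroflavonol, anthocyanidin, anthocyanin, stilbene synthase or resveratrol synthase. A second description field was read where the first was empty or uninformative, and 9 of the genes came from it. The search itself reads only descriptions, but the set was proposed with earlier results of these data known. The 78 genes hold 3 chalcone synthases, 3 chalcone isomerases or relatives, 1 flavanone 3-dioxygenase, 10 flavonoid 3'- or 3',5'-hydroxylases, 4 flavonol synthases, 3 dihydroflavonol reductases, 1 leucoanthocyanidin dioxygenase, 2 leucoanthocyanidin reductases and 3 anthocyanidin reductases or relatives. They also hold 24 anthocyanidin glucosyltransferases, 5 anthocyanin acyltransferases, 9 stilbene synthases, 2 homeobox genes described as ANTHOCYANINLESS 2 and 8 other enzymes.

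Total RNA was sequenced from ovules of the Vitis vinifera variety Muscat Hamburg, here MH, and of Zhongpu No. 18, here ZP. Ovules were taken on day 35, day 45, day 55 and day 61 from flowering, untreated, and each of the 8 groups has 2 libraries. The series title concerns lignin formation in seeded and stenospermocarpic ovules. In stenospermocarpy fertilisation takes place but the embryo and endosperm stop growing, so that the fruit is eaten as seedless. Muscat Hamburg is known as a seeded grape, and the labels themselves do not state the seed type of either variety. The labels say that material was frozen with its skin on, and they leave unsaid whether libraries of one group stem from different vines or berries, so p-values measure only the spread between these libraries.

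As background, chalcone synthase joins a coumaroyl unit to malonyl units, and chalcone isomerase closes the ring to give a flavanone. Hydroxylases, dihydroflavonol reductase and leucoanthocyanidin dioxygenase then lead towards anthocyanidins. In grape seeds the route is known mainly for proanthocyanidins, the tannins of the seed coat. Leucoanthocyanidin reductase gives catechin units for them and anthocyanidin reductase gives epicatechin units, while glucosylation of anthocyanidins gives the coloured anthocyanins of the skin. Stilbene synthase uses the same substrates as chalcone synthase and makes resveratrol, a defence compound of grape.

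Values are FPKM as deposited, fragments scaled to transcript length and to the number of mapped fragments, and are therefore shares of each library. The steps between low FPKM values correspond to 2e+07 to 3e+07 fragments a library, so that 3 fragments on a transcript of 1 kb are 0.1 to 0.15 FPKM. Seed storage protein genes, markers of embryo and endosperm, accounted for 16.8% to 46.1% of all FPKM in MH libraries and for 0.0191% to 1.09% in ZP libraries. Their summed level ran from 62260 to 243400 FPKM in MH and from 67.2 to 3879 FPKM in ZP. This storage list has 27 genes, of which 1 is at 0 in every ZP library. TRANSPARENT TESTA 1 and 16, markers of the seed coat, summed to 1.83 to 28.6 FPKM in MH, falling with each day, and to 70.3 to 93.9 FPKM in ZP. The 40 pericarp and skin ripening genes summed to 2928 to 4874 FPKM in MH and 1572 to 5707 FPKM in ZP, and the 36 green tissue genes to 104 to 2109 FPKM in MH and 1732 to 6398 FPKM in ZP, all of them above 0 in some library. The part of these tissues in the results was not tested, and fewer cells of a type cannot be told apart from less RNA per cell. Over all 12637 genes tested, the median difference of ZP from MH averaged over the days was 0.583 on the log2(FPKM + 1) scale. After median-ratio scaling of the libraries it was 0.105, so values under that scaling are given wherever a direction or a call turns on it.

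As a group, the 78 genes took 0.868% to 1.52% of all FPKM in MH libraries and 0.91% to 1.82% in ZP libraries. The share was higher in both ZP libraries at day 35, with 1.82% and 1.77% against 1.52% and 1.46%, and at day 61, with 1.64% and 1.46% against 1.19% and 1.34%. Shares at day 45 overlapped, at 1.03% and 0.91% in ZP against 0.868% and 1.03% in MH. At day 55 they were 1.08% and 1.1% against 1.11% and 1.21%. Their summed FPKM was lower in ZP at day 45, with 3378 ± 286 against 4519 ± 95.3, and at day 55, with 3667 ± 308 against 5409 ± 405 (SD, n = 2 each). The sum was also lower in ZP at day 61, with 5449 ± 326 against 6214 ± 95.9 (SD, n = 2 each). The direction at day 61 thus depended on the measure. Their levels spanned several orders of magnitude. Of the 78 genes, 11 had a mean of at least 100 FPKM over the 16 libraries, 21 had a mean of at least 10 FPKM and 28 had a mean under 1 FPKM. They ran from CHS3, a chalcone synthase, at 913 FPKM through LOC100255217, LDOX, LOC100232843, ANR, DFR, LOC100253950, CHI, LOC100263443 and LAR2 to the flavonol synthase LOC100267819 at 139 FPKM. The filter of 1 FPKM in at least 2 libraries kept 71 of the 78 genes for testing with limma. Called below means a Benjamini-Hochberg adjusted p, taken over all 12637 genes, under 0.05.

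Averaged over the days, 49 of the 71 genes were higher in ZP and 17 were lower, 93% called in either direction against 88.7% of all genes tested, of which 61.6% were higher and 27% lower. The members' median difference was 0.58, against 0.583 for all genes. With median-ratio scaling 42 were higher and 24 lower, and with quantile normalization 40 were higher and 23 lower. Over all 12637 genes 6065 were higher and 5326 lower with median-ratio scaling, and 5943 and 5448 with quantile normalization. Of the 21 genes with a mean of at least 10 FPKM, 8 were higher in ZP and 11 lower, and of the 50 tested genes under 10 FPKM, 41 were higher and 6 lower. The difference between these sets was not tested. Many of the 50 stayed under 1 FPKM in MH and passed the filter only through ZP libraries, so the count of higher genes among them was in part set by the filter. All 8 ZP libraries stood above all 8 MH libraries in 16 of the 71 tested genes, and below them in 3, where 30.3% and 8.59% of all genes did so.

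By day, at day 35 22 genes were higher in ZP and 15 lower, 52.1% of the members against 76.9% of all genes, of which 45.8% were higher and 31.1% lower. At day 45 40 were higher and 15 lower, or 77.5% against 78.9% of all genes (59.8% higher). With median-ratio scaling 31 were higher and 20 lower, where 5356 of all 12637 genes were higher and 4707 lower. At day 55 47 were higher and 17 lower, or 90.1% against 78.2% of all genes (56.9% higher). At day 61 40 were higher and 14 lower, or 76.1% against 74.6% of all genes (55.5% higher). With median-ratio scaling 37 were higher and 22 lower, where 5255 of all 12637 genes were higher and 4642 lower. The members' median difference was 0.12 at day 35, 0.66 at day 45, 1.06 at day 55 and 0.74 at day 61, where all genes had 0.236, 0.682, 0.642 and 0.555. The variety difference depended on the day in 62 of the 71 genes by the F-test of the variety by day terms, 87.3% against 78.9% of all genes.

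Over time, 37 genes rose and 19 fell from day 35 to day 61 in ZP, 78.9% called against 66.9% of all genes, of which 31.9% rose and 35% fell. In MH 13 rose and 25 fell, 53.5% against 68% of all genes (15.8% rising and 52.1% falling). With median-ratio scaling 20 rose and 16 fell, where 3873 of all 12637 genes rose and 4442 fell. The members' median change was 0.42 in ZP and -0.17 in MH, where all genes had -0.013 and -0.425. The change differed between the varieties in 49 of the 71 genes, 38 of them with the higher change in ZP and 11 with the higher change in MH, 69% against 69.1% of all genes. With median-ratio scaling these were 35 and 18, where over all genes they were 4752 and 3849. The other 22 were not called in this test. The plot of the change in each variety shows the 71 genes.

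**Figure D1:**
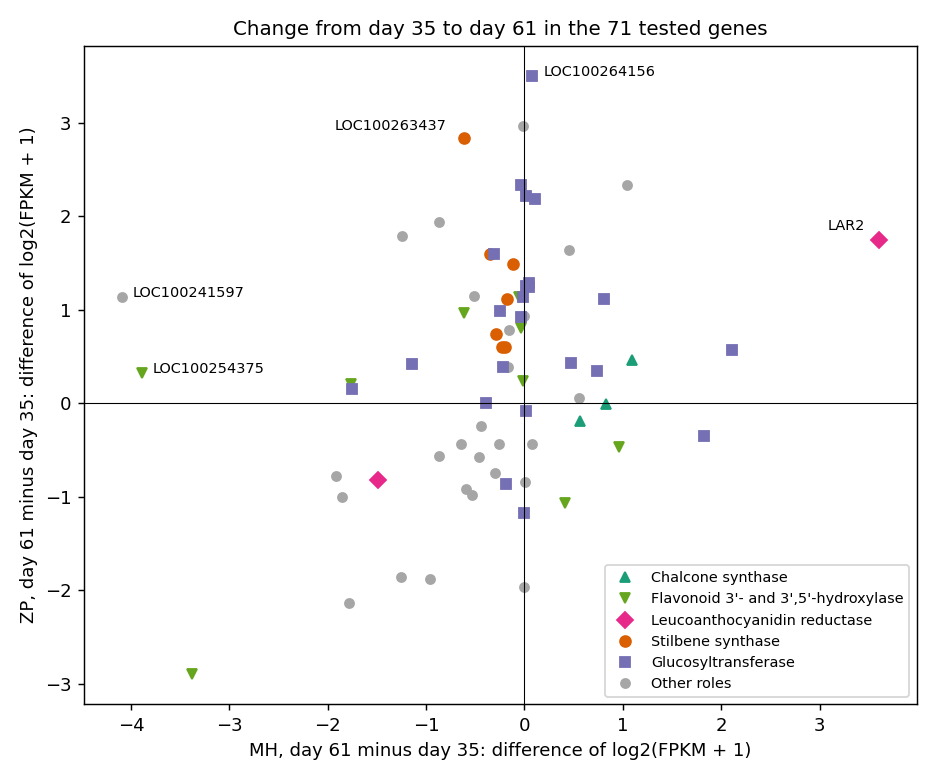
Change from day 35 to day 61 of log2(FPKM + 1) in MH (horizontal axis) and in ZP (vertical axis), 1 point for each of the 71 tested genes, coloured by role. The stilbene synthases lie above 0 in ZP and below 0 in MH, the chalcone synthases lie right of 0, LAR2 rises in both and LOC100241597 and LOC100254375 fall by 4.09 and 3.89 in MH.

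Chalcone synthase opens the route, and its 3 genes went different ways in the varieties after day 35. Their summed level in MH was 1491 ± 350 FPKM at day 35, 1638 ± 128 at day 45, 2288 ± 315 at day 55 and 2817 ± 198 at day 61 (SD, n = 2 each). In ZP the sum was 1635 ± 65.0 FPKM at day 35, 817 ± 95.8 at day 45, 918 ± 103 at day 55 and 1901 ± 195 at day 61 (SD, n = 2 each). ZP thus dipped at the middle days and recovered, and limma called none of the 3 genes between varieties at day 35, though 1 was called higher in ZP with quantile normalization. All 3 were called lower in ZP at days 45, 55 and 61, which held with median-ratio scaling, and with quantile normalization 2 of the 3 were called at day 61.

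CHS3, the most abundant member, stood in MH at 881 and 617 FPKM on day 35, 1004 and 856 at day 45, 1393 and 1104 at day 55 and 1675 and 1466 at day 61. The ZP libraries gave 807 and 761 FPKM at day 35, 489 and 413 at day 45, 440.4 and 532 at day 55 and 1165 and 1000 at day 61. The varieties overlapped at day 35 and not at the later days. CHS3 differed by -1.04 ± 0.20 on the log2 scale at day 45 (limma adjusted p = 0.000255) and by -1.36 ± 0.20 at day 55 (limma adjusted p = 2.37e-05). At day 61 the difference was -0.54 ± 0.20 (limma adjusted p = 0.0236). This call was lost with quantile normalization (-0.38), without replicate 1 of MH at day 61 (-0.44) and without replicate 2 of ZP at day 61 (-0.43). From day 35 to day 61 CHS3 rose by 1.09 ± 0.20 in MH, LOC100232843 by 0.83 ± 0.16 and LOC100263443 by 0.56 ± 0.18 (limma adjusted p = 0.000249, 0.000358 and 0.015). The last call was lost without replicate 2 of MH at day 35, where the rise was 0.30, and without replicate 1 of MH at day 61, where it was 0.50. None of the 3 was called in ZP over the same time by limma, with CHS3 at 0.46 ± 0.20. LOC100232843 and LOC100263443 lie next to each other on chromosome 14 within 14.9 kb, and reads shared between such copies could be divided between them by the authors' counting.

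The chalcone isomerase gene CHI, which closes the flavanone ring, had a course like that of the synthases. CHI stood at 249 and 234 FPKM in MH at day 35, 221 and 204 at day 45, 318 and 294 at day 55 and 341 and 367 at day 61. Its ZP levels were 219 and 217 FPKM at day 35, 98.8 and 95.4 at day 45, 109.5 and 128 at day 55 and 232 and 222 at day 61. Every ZP library was below every MH library of the same day. The averaged difference was -0.82 ± 0.06 (limma adjusted p = 6.97e-09), with -1.12 ± 0.11 at day 45 and -1.36 ± 0.11 at day 55. LOC100255217, a chalcone isomerase-like protein of a kind that in hop assists flavonoid formation without isomerase activity, ran from 539 to 958 FPKM in MH and from 421 to 857 in ZP. Its averaged difference was -0.16 ± 0.08 and missed the threshold (limma adjusted p = 0.0689), and was -0.89 and called with median-ratio scaling. LOC100257991, described by its likeness to an Arabidopsis fatty-acid-binding protein of the chalcone isomerase fold, was lower in ZP by -1.01 ± 0.07 and fell over time in both varieties, by 1.92 ± 0.15 in MH and 0.78 ± 0.15 in ZP.

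The flavanone 3-dioxygenase LOC100253950, which adds the hydroxyl group that leads to dihydroflavonols, ran from 205 to 418 FPKM in MH and from 125 to 411 FPKM in ZP. Its averaged difference was -0.38 ± 0.11 (limma adjusted p = 0.00522), and the varieties overlapped. A second gene of this step, F3H, does not carry a searched word in its description and was read beside the 78 genes. F3H ran from 448 to 795 FPKM in MH and from 315 to 796 in ZP, with an averaged difference of -0.15 ± 0.08 that missed the threshold (limma adjusted p = 0.0928) and was -0.88 with median-ratio scaling.

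**Figure D2:**
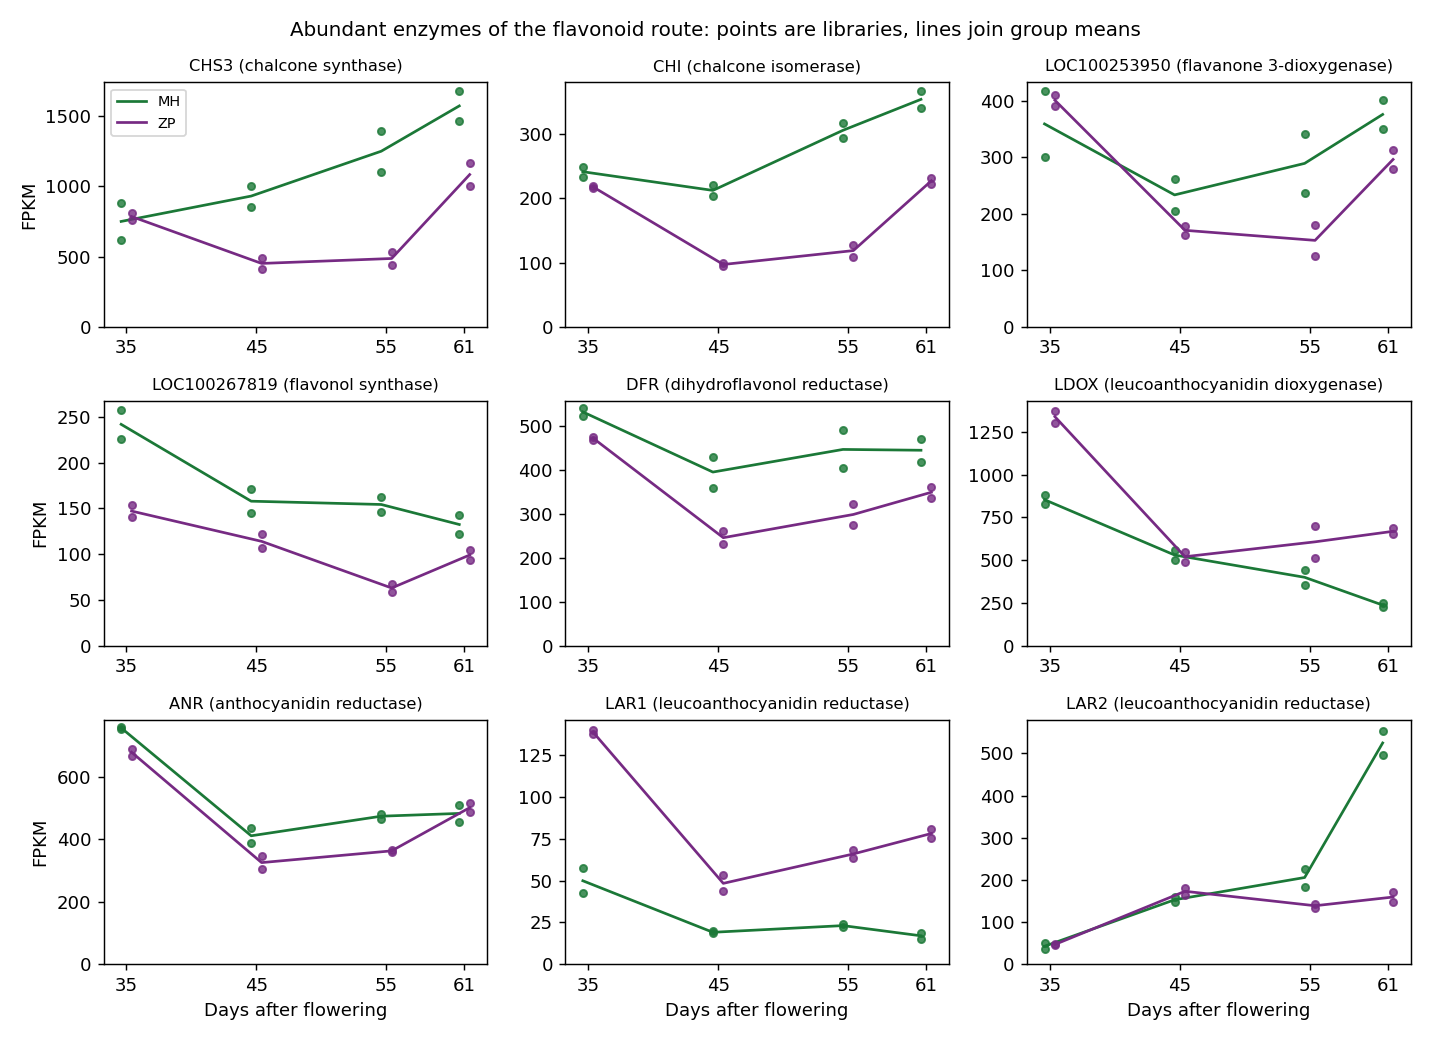
FPKM against days after flowering for 9 abundant enzymes, with points for libraries and lines through the means of 2 libraries (MH green, ZP purple, each axis from 0). CHS3 and CHI dip in ZP at days 45 and 55 while they hold or climb in MH. LAR1 is higher in ZP than in MH by FPKM on each day, of which day 45 is not called with median-ratio scaling. It is lower at day 61 than at day 35 in both varieties. LDOX is higher in ZP by FPKM at days 35, 55 and 61, of which only day 61 is called with median-ratio scaling. LAR2 climbs to 554 and 496 FPKM in MH at day 61.

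Dihydroflavonol reductase and leucoanthocyanidin dioxygenase follow each other in the route and differed from each other in direction. DFR ran from 360 to 542 FPKM in MH and from 231 to 476 in ZP and was lower in ZP by -0.44 ± 0.07 averaged over the days (limma adjusted p = 5.29e-05). LDOX, the dioxygenase that makes anthocyanidins, stood at 881 and 827 FPKM in MH at day 35, 557 and 503 at day 45, 444 and 355 at day 55 and 228 and 246 at day 61. The ZP libraries held 1374 and 1305 FPKM at day 35, 549 and 491 at day 45, 514 and 700.2 at day 55 and 687 and 650.1 at day 61. MH fell at every step and ZP fell only up to day 45, and the varieties overlapped at day 45 alone. LDOX fell by 1.85 ± 0.16 from day 35 to day 61 in MH (limma adjusted p = 3.28e-07) and by 1.00 ± 0.16 in ZP (limma adjusted p = 0.000103), and both falls were called under every scaling tried. LDOX was called higher in ZP by 0.65 at day 35 and by 0.59 at day 55. With median-ratio scaling these differences were 0.36 and -0.26, and neither was called. At day 61 it was higher in ZP by 1.49 ± 0.16, and by 0.65 with median-ratio scaling. The averaged difference of 0.68 ± 0.08 turned to -0.05 with median-ratio scaling and was then not called (limma adjusted p = 0.634).

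From day 35 to day 61 the 2 leucoanthocyanidin reductases moved in opposite directions in both varieties, LAR1 down and LAR2 up. In ZP the fall of LAR1 came by day 45, and LAR1 rose again afterwards. LAR1 stood at 57.3 and 42.5 FPKM in MH at day 35, 18.5 and 19.7 at day 45, 23.8 and 22.4 at day 55 and 18.7 and 15.3 at day 61. In ZP it stood at 139.9 and 137 FPKM at day 35, 53.2 and 43.5 at day 45, 63.5 and 68.4 at day 55 and 80.6 and 75.7 at day 61. LAR1 was higher by FPKM in both ZP libraries than in both MH libraries on each day. Its averaged difference was 1.59 ± 0.07 (limma adjusted p = 9.7e-11), and 0.89 with median-ratio scaling. With that scaling LAR1 was not called at day 45.

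LAR2 held 49.3 and 36.1 FPKM in MH at day 35, 159 and 147 at day 45, 227 and 184 at day 55 and 554 and 496 at day 61. Its ZP libraries held 48.3 and 45.5 FPKM at day 35, 181 and 165 at day 45, 135 and 143 at day 55 and 171 and 148 at day 61. The varieties overlapped at day 35, and at day 61 MH stood far above ZP. At day 45 LAR2 was not called between varieties, but was called lower in ZP with median-ratio scaling. LAR2 rose by 3.60 ± 0.15 in MH (limma adjusted p = 3.82e-10) and by 1.74 ± 0.15 in ZP (limma adjusted p = 3.74e-07). The changes differed by -1.86 ± 0.22 (limma adjusted p = 7.07e-06), and with median-ratio scaling by -2.43. LAR2 overlaps LOC100256061, and no source used here says whether the counting used strand, so reads of these genes may not be told apart.

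Within a library the balance of 2 genes does not depend on what the other genes take. LAR2 made up 46.2% and 45.9% of the summed LAR1 and LAR2 FPKM in MH at day 35, 89.6% and 88.1% at day 45, 90.5% and 89.2% at day 55 and 96.7% and 97% at day 61. In ZP its share was 25.7% and 24.9% at day 35, 77.3% and 79.2% at day 45, 67.9% and 67.7% at day 55 and 68% and 66.1% at day 61. The ZP share stayed below the MH share on every day. These shares are given as a description, with no test.

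Anthocyanidin reductase makes the epicatechin units of the tannins and was abundant in both varieties. ANR stood at 759 and 753 FPKM in MH at day 35, 387 and 434 at day 45, 466 and 481 at day 55 and 454 and 510.4 at day 61. It stood at 689 and 667 FPKM in ZP at day 35, 345 and 306 at day 45, 360 and 365 at day 55 and 515 and 487 at day 61. ZP was lower by FPKM on the first 3 days, and the varieties overlapped at day 61. ANR was not called between varieties at day 35 or day 61, but was called lower in ZP on both days with median-ratio scaling. The averaged difference was -0.21 ± 0.06 (limma adjusted p = 0.0056) and -0.93 with median-ratio scaling. The ratio of LDOX to ANR fell within MH libraries from 1.16 and 1.10 at day 35 to 0.501 and 0.482 at day 61, and within ZP libraries from 1.99 and 1.96 to 1.34 and 1.34.

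**Figure D3:**
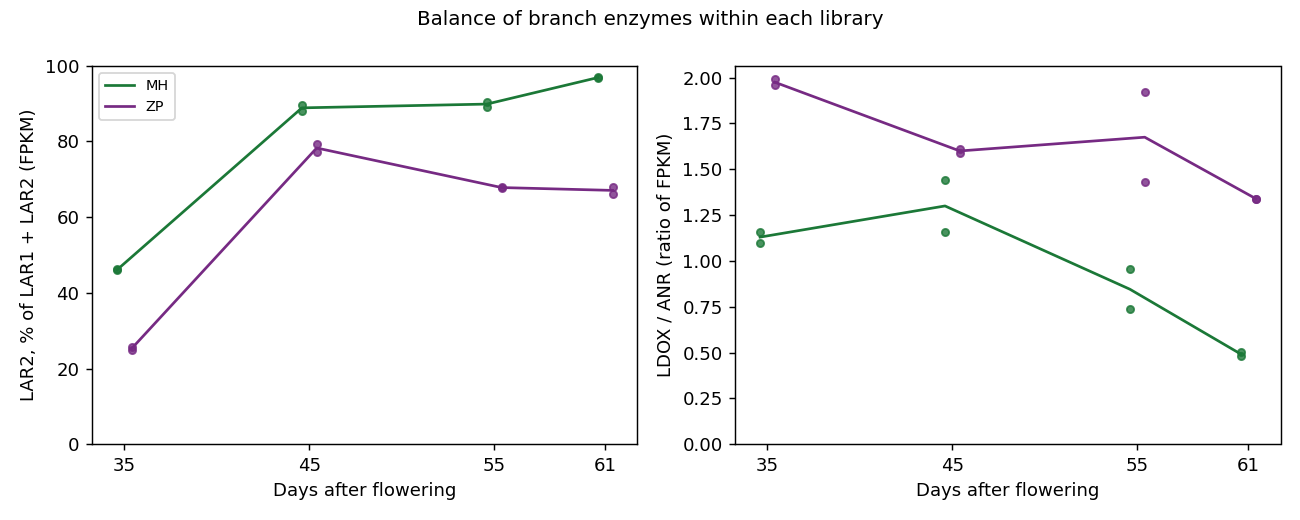
Share of LAR2 in the summed FPKM of LAR1 and LAR2 (left, percent) and ratio of LDOX to ANR FPKM (right) against days after flowering, with points for libraries and lines through group means. The LAR2 share reaches 97% in MH and stays between 66.1% and 79.2% in ZP from day 45, and the LDOX to ANR ratio is lower in MH on every day.

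Several less abundant relatives of these enzymes took opposite courses in the varieties. LOC100241597, described as a putative anthocyanidin reductase by its likeness to a Ginkgo protein, stood at 19.0 and 22.3 FPKM in MH at day 35, 5.91 and 5.91 at day 45, 0.771 and 0.980 at day 55 and 0.277 and 0.248 at day 61. ZP libraries of the same gene gave 5.76 and 5.49 FPKM at day 35, 11.3 and 10.3 at day 45, 11.2 and 9.62 at day 55 and 13.8 and 13.2 at day 61. MH was the higher variety at day 35 and the lower one on all later days. LOC100241597 fell by 4.09 ± 0.12 in MH (limma adjusted p = 1.91e-11) and rose by 1.13 ± 0.12 in ZP (limma adjusted p = 2.66e-06). The difference between these changes, 5.22 ± 0.17 (limma adjusted p = 1.11e-10), was the largest among the 71 genes, and 5.09 with median-ratio scaling.

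LOC100254375, a flavonoid 3'-monooxygenase and so an enzyme that sets the hydroxyl pattern of the B ring, showed a crossing of the same kind. Its MH libraries held 23.6 and 20.9 FPKM at day 35, 11.7 and 11.7 at day 45, 4.70 and 4.85 at day 55 and 0.451 and 0.678 at day 61. Its ZP libraries held 8.79 and 8.45 FPKM at day 35, 13.9 and 12.1 at day 45, 14.0 and 13.6 at day 55 and 11.2 and 10.7 at day 61. The gene declined steadily in MH and stayed within a narrow range in ZP. It fell by 3.89 ± 0.12 in MH, and the changes differed by 4.21 ± 0.17 (limma adjusted p = 4.67e-10).

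The 2 dihydroflavonol reductase-like genes followed. LOC100246060 went from 2.03 and 3.75 FPKM at day 35 to 1.07 and 1.08 at day 61 in MH and from 2.49 and 2.60 to 12.4 and 12.7 in ZP. LOC100255535 went from 15.8 and 18.6 FPKM to 6.20 and 7.13 in MH and from 4.09 and 4.34 to 16.0 and 18.1 in ZP. Both rose in ZP, by 1.94 ± 0.18 and 1.79 ± 0.14, and the changes differed between the varieties by 2.80 ± 0.25 and 3.03 ± 0.19 (limma adjusted p = 5.13e-07 and 2.4e-08). The fall of LOC100246060 in MH, -0.87 ± 0.18, was -0.14 and not called with quantile normalization. The averaged difference of LOC100255535, 0.43 ± 0.07, was -0.22 with median-ratio scaling, and the gene overlaps LOC132253408.

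Among the 10 flavonoid 3'- and 3',5'-hydroxylases, 9 were tested, and averaged over the days 6 were higher in ZP and 1 was lower, a share of higher genes near the 61.6% over all genes. With median-ratio scaling 5 were higher and 3 lower, and with quantile normalization 4 and 3. LOC100232896, LOC100248071 and LOC132253951, among others, stayed under 1 FPKM in every MH library and passed the filter only through ZP libraries. LOC100253887 passed it only through MH libraries of day 35. The counts of higher and lower genes in this role were therefore in large part set by the filter. LOC100263810, a flavonoid 3'-monooxygenase, had the highest mean, and its 2 MH libraries differed widely on each day, with 18.9 and 4.85 FPKM at day 35 and 35.9 and 10.8 at day 61. Its averaged difference was -0.02 ± 0.31 and was not called. LOC100247021, described by a petunia flavonoid 3',5'-hydroxylase, fell in ZP by 1.07 ± 0.14 from day 35 to day 61 (limma adjusted p = 1.14e-05), from 30.1 and 27.2 FPKM to 13.3 and 12.8. Its averaged difference of 0.29 ± 0.07 was -0.38 with median-ratio scaling, and the gene overlaps LOC100252149. A group of 6 lies on chromosome 6 within 690 kb. LOC100256733, also in that group, fell from 10.2 and 8.65 FPKM to 0 in both MH libraries and from 6.77 and 6.18 FPKM to 0 in both ZP libraries of day 61. It overlaps LOC100251670, so its reads may be shared with that gene or assigned to it. The other 5 had a mean under 1 FPKM, and each was highest in a ZP library of day 55, at 3.09 FPKM or below.

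Flavonol synthase turns dihydroflavonols into flavonols such as quercetin, and its 4 genes split evenly, with 2 higher and 2 lower in ZP averaged over the days under each scaling. The abundant one, LOC100267819, ran from 122 to 258 FPKM in MH and from 58.7 to 154 in ZP, and was lower in ZP by -0.72 ± 0.07 (limma adjusted p = 2.53e-07). It overlaps LOC132253086. FLS1, its neighbour on chromosome 18 within 31.4 kb, ran the other way. FLS1 stayed between 0.201 and 1.10 FPKM in all MH libraries and stood at 10.9 and 12.9 FPKM in ZP at day 35, 6.04 and 6.29 at day 45, 1.78 and 3.04 at day 55 and 6.73 and 6.61 at day 61. All ZP libraries were above all MH libraries, by 2.16 ± 0.08 on average (limma adjusted p = 1.51e-11). LOC100264239 rose in ZP by 2.96 ± 0.15, or 4.68 with a pseudocount of 0.1, from 0.231 and 0.247 FPKM at day 35 to 9.50 and 7.83 at day 61, and ran from 0.361 to 0.752 FPKM in MH. LOC100245030 was lower in all ZP libraries, at 0.0523 to 0.939 FPKM against 1.61 to 3.58 in MH, with a difference of -1.24 ± 0.07, or -2.35 with a pseudocount of 0.1. FLS1 and LOC100264239 passed the filter only through ZP libraries, and LOC100245030 only through MH libraries. The directions of these genes, and the rise of LOC100264239 in ZP, were therefore largely set by the filter.

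The glucosyltransferases attach sugars to anthocyanidins and related flavonoids, and as described by likeness they may act on other substrates. Of the 24 genes 23 were tested. Averaged over the days 19 were higher in ZP and 3 lower, where 61.6% of all genes were higher and 27% lower. With median-ratio scaling 17 were higher and 5 lower, where 6065 of 12637 genes were higher and 5326 lower. LOC100242884, LOC100247997, LOC100249635, LOC100254753 and LOC100264156 stayed near 0 in MH. These and others, making most of the 23 tested genes, stayed under 1 FPKM in every MH library and passed the filter only through ZP libraries. LOC100248484 and LOC100249544 passed it only through MH libraries. The direction of such genes was largely set by the filter, and the counts of genes higher and rising in ZP were in part set by it. In MH the summed level of the 24 genes ran from 33.9 to 48.3 FPKM, overlapping between all days. In ZP the sum was 53.9 ± 1.26 FPKM at day 35, 153 ± 10.0 at day 45, 180 ± 5.30 at day 55 and 121 ± 9.14 at day 61 (SD, n = 2 each). From day 35 to day 61 15 of the 23 rose in ZP and 2 fell, and in MH 5 rose and 4 fell, or 8 and 2 with median-ratio scaling. Without that scaling 31.9% of all genes rose and 35% fell in ZP, and 15.8% rose and 52.1% fell in MH.

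LOC100257268, an anthocyanidin 5,3-O-glucosyltransferase and the most abundant of these genes, stood at 4.91 and 4.09 FPKM in MH at day 35, 7.43 and 8.24 at day 45, 5.40 and 6.14 at day 55 and 1.71 and 1.28 at day 61. ZP had 23.1 and 20.8 FPKM at day 35, 59.6 and 56.1 at day 45, 65.1 and 58.6 at day 55 and 30.9 and 28.3 at day 61. The lowest ZP library was above the highest MH library. The averaged difference was 2.91 ± 0.06 (limma adjusted p = 7.02e-14), and 2.27 with median-ratio scaling. LOC100251889 stayed between 0.575 and 1.32 FPKM in MH and rose in ZP from 4.45 and 4.91 FPKM to 32.7 and 32.8 at day 55, with an averaged difference of 3.07 ± 0.06. LOC100249635 was listed at 0 in 6 of the 8 MH libraries and reached 0.0548 FPKM at most there, against 4.37 to 13.6 FPKM in ZP. Its averaged difference of 3.39 ± 0.07 was 6.47 with a pseudocount of 0.1, since the size of a change from near 0 depends on the pseudocount.

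LOC100264156 was rare in both varieties at day 35, at most 0.133 FPKM, and climbed in ZP to 6.22 and 5.01 FPKM at day 45, 11.5 and 9.53 at day 55 and 12.7 and 10.4 at day 61, while MH stayed at 0.095 FPKM or below. Its rise in ZP was 3.50 ± 0.13 (limma adjusted p = 7.53e-11), and 5.84 with a pseudocount of 0.1. Against the majority, LOC104877795 was higher in MH, at 12.7 to 28.4 FPKM against 0.109 to 2.82 FPKM in ZP, a difference of -3.34 ± 0.14 (limma adjusted p = 2.5e-11). Its neighbour on chromosome 19 within 6.39 kb, LOC100248484, was also higher in all MH libraries, at 0.309 to 1.83 FPKM against 0.0435 FPKM at most in ZP.

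Anthocyanin acyltransferases add malonyl or aromatic acyl groups to the sugar. LOC100256273, described as a malonyltransferase, stood at 1.04 and 1.29 FPKM in MH at day 35, 0.859 and 0.543 at day 45, 0.695 and 1.36 at day 55 and 0.502 and 0.533 at day 61. Its ZP libraries stood at 11.9 and 12.3 FPKM at day 35, 9.95 and 9.30 at day 45, 11.9 and 9.21 at day 55 and 30.3 and 25.9 at day 61. The varieties did not overlap, and ZP was highest at day 61. The averaged difference was 3.01 ± 0.09 (limma adjusted p = 6.87e-13), and 4.26 ± 0.17 at day 61.

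LOC100259716, another malonyltransferase of the same cluster, was at most 0.0565 FPKM in any MH library and listed at 0 in the MH libraries of days 35 and 61. In ZP it stood at 1.05 and 0.937 FPKM at day 35, 5.98 and 5.39 at day 45, 18.4 and 16.7 at day 55 and 2.61 and 3.03 at day 61. It thus peaked at day 55 where LOC100256273 peaked at day 61. The difference at day 55 was 4.17 ± 0.10 (limma adjusted p = 1.33e-12), and 7.11 with a pseudocount of 0.1. LOC100259716 passed the filter only through ZP libraries, so its higher level in ZP was largely set by the filter. These genes lie with LOC100263140 and LOC100261365 on chromosome 12 within 58.9 kb, and the latter 2 were too low to be tested, at 0.983 and 1.25 FPKM at most. LOC100852494, on chromosome 13, went the other way, with 0.973 to 4.93 FPKM in MH and 0.118 to 3.85 in ZP.

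**Figure D4:**
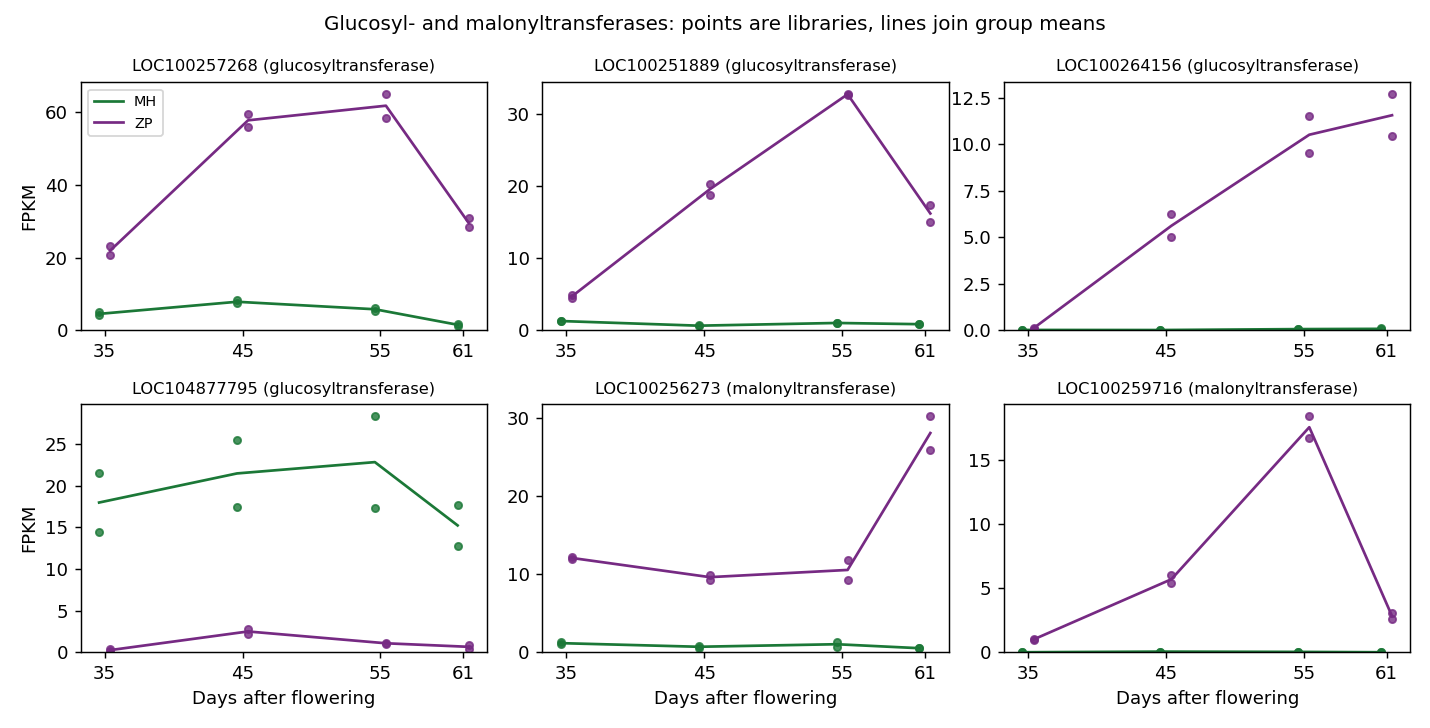
FPKM against days after flowering for 4 glucosyltransferases and 2 malonyltransferases, with points for libraries and lines through group means (each axis from 0). ZP lies above MH throughout in all but LOC104877795, which is at 12.7 FPKM or more in MH, and LOC100264156, which starts near 0 in both varieties, and LOC100259716 has its peak of 18.4 and 16.7 FPKM at day 55.

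The remaining 8 enzymes were named by their descriptions only. Of the 5 genes described as 2-hydroxyisoflavanone dehydratases, an enzyme known from legume isoflavone formation, LOC104879249 stood at 2.19 to 4.81 FPKM in MH and 13.4 to 48.1 in ZP, a difference of 2.94 ± 0.08 (limma adjusted p = 4.36e-13). LOC100255589 stood at 8.28 to 19.2 FPKM in MH and 29.0 to 85.1 in ZP, a difference of 1.91 ± 0.10. LOC100248687, on chromosome 3 in the same stretch of 10.9 kb, was lower in ZP by -0.43 ± 0.15 (limma adjusted p = 0.0143). LOC100244875, described as a flavanone glucoside rhamnosyltransferase, rose in ZP by 2.33 ± 0.13, from 2.84 and 3.12 FPKM to 20.4 and 17.8. Of the 2 methyltransferases described as acting on flavonoid 3',5' positions, LOC100250579 was listed at 0 in every MH library, at 2.58 and 3.27 FPKM in ZP at day 35 and at 0.0438 FPKM or below in ZP afterwards. The homeobox gene LOC100260889, whose Arabidopsis counterpart affects anthocyanin in the leaf layer below the epidermis, was higher in all ZP libraries, at 10.4 to 15.2 FPKM against 3.72 to 4.99 in MH, with a difference of 1.44 ± 0.07.

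The 9 stilbene synthases lie in 1 run on chromosome 16 and differ from the chalcone synthases in level and course. Their summed FPKM was 2.32 and 1.93 in MH at day 35, 1.68 and 5.22 at day 45, 1.29 and 3.14 at day 55 and 0.288 and 0.0807 at day 61. In ZP the sum was 0.695 and 0.624 FPKM at day 35, 5.72 and 6.63 at day 45, 31.7 and 21.7 at day 55 and 15.4 and 17.6 at day 61. MH was the higher variety at day 35, and ZP was higher from day 45 and most of all at days 55 and 61. The sum amounted to 0.134% and 0.156% of the chalcone synthase sum in MH at day 35 and 0.00974% and 0.00301% at day 61, and in ZP to 0.0414% and 0.0392% at day 35 and 3.75% and 2.19% at day 55.

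Of the 7 stilbene synthases tested, none was called between varieties at day 35, nor with median-ratio scaling or quantile normalization, but 3 were called lower in ZP with a pseudocount of 0.1. At day 45 2 were higher in ZP, or 1 with median-ratio scaling, while with quantile normalization none was higher and 1 lower, and at days 55 and 61 all 7 were higher. With quantile normalization 6 of the 7 were called at day 55. All 7 rose from day 35 to day 61 in ZP, and in all 7 the change was higher in ZP than in MH by limma, as it was under both scalings. Over all genes 56.9% were higher in ZP at day 55 and 55.5% at day 61. Of all genes 31.9% rose in ZP and 48.5% had the higher change there. All but LOC100263437 stayed under 1 FPKM in every MH library and passed the filter through ZP libraries of days 45 to 61. Their higher level in ZP on those days and their rise in ZP were therefore in large part set by the filter. The genes are near copies in 1 run, reads shared between them may be divided among them or lost, and the 9 genes are not independent witnesses.

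LOC100263437, the highest of the 9, stood at 0.673 and 0.529 FPKM in MH at day 35, 0.702 and 2.64 at day 45, 0.634 and 1.75 at day 55 and 0.0657 and 0.0294 at day 61. ZP libraries had 0.154 and 0.178 FPKM at day 35, 3.15 and 3.795 at day 45, 13.5 and 9.89 at day 55 and 6.84 and 7.88 at day 61. MH replicate 2 was well above replicate 1 at days 45 and 55, and ZP was above both from day 45. The difference was 2.57 ± 0.30 at day 55 (limma adjusted p = 2.89e-06) and 2.99 ± 0.30 at day 61 (limma adjusted p = 7.11e-07), or 5.67 at day 61 with a pseudocount of 0.1. It rose in ZP by 2.84 ± 0.30 (limma adjusted p = 1.87e-06), or 4.81 with a pseudocount of 0.1. LOC100242994, the second, reached 4.97 and 4.07 FPKM in ZP at day 55 and 0.595 FPKM at most in MH, with a difference of 2.18 ± 0.14 at day 55, or 3.87 with a pseudocount of 0.1. The other 7 stayed at 2.65 FPKM or below in every library.

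**Figure D5:**
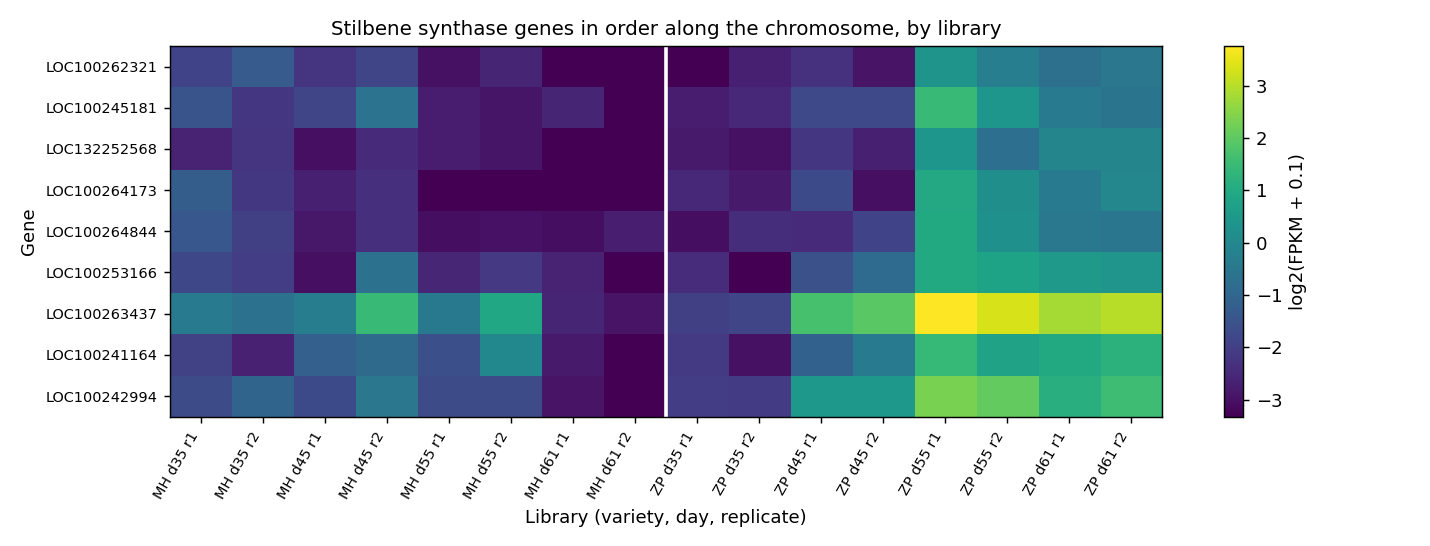
Heat map of log2(FPKM + 0.1) for the 9 stilbene synthase genes (rows, in their order on the chromosome) in the 16 libraries (columns, MH left and ZP right of the white line, by day and replicate). All 9 are brightest in ZP at days 55 and 61, and LOC100263437 is the brightest row, with 13.5 and 9.89 FPKM at day 55.

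Regulators of the route were read from their descriptions beside the 78 genes. Of 11 genes, 9 were higher in ZP averaged over the days and 2 lower, or 8 and 2 with median-ratio scaling, where 61.6% of all genes were higher and 27% lower. The 2 lower ones are laccase-15 genes, the enzyme that in Arabidopsis is TRANSPARENT TESTA 10 and oxidises flavonoids in the seed coat. They are thus enzymes and not regulators. Among the 9 higher ones are the 2 TRANSPARENT TESTA genes read above as seed coat markers, so these are counted again here. LOC100254224, described as TT2, the MYB factor that in Arabidopsis switches on tannin genes of the seed coat, stood at 11.1 to 17.7 FPKM in MH and 62.9 to 95.7 FPKM in ZP. Its difference was 2.36 ± 0.07 (limma adjusted p = 7.72e-13), and 1.66 with median-ratio scaling. LOC100249722, described as MYB114, an anthocyanin regulator in Arabidopsis, was chosen after its values were seen, with 0.462 to 3.62 FPKM in MH and 25.4 to 44.8 in ZP.

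MYB14, a factor known in grape to switch on stilbene synthases, was also chosen after its values were seen. It stood at 0 and 0.0560 FPKM in MH at day 35 and at 0.392 FPKM at most there later, and in ZP at 0 and 0.0485 FPKM at day 35, 1.06 and 1.10 at day 45, 1.79 and 0.864 at day 55 and 1.29 and 1.68 at day 61. It rose in ZP by 1.28 ± 0.15 (limma adjusted p = 6.15e-06). MYB14 passed the filter only through ZP libraries of days 45 to 61, so its higher level and its rise in ZP were largely set by the filter. The entry enzymes that supply the route, phenylalanine ammonia-lyase, cinnamate 4-hydroxylase and coumarate ligase, comprised 22 genes, of which 16 were tested. Averaged over the days 6 of these were higher in ZP and 8 lower, where 61.6% of all genes were higher and 27% lower. With median-ratio scaling 5 were higher and 10 lower, where 6065 of 12637 genes were higher and 5326 lower. The most abundant, the cinnamate 4-hydroxylase LOC100253493, ran from 349 to 537 FPKM in MH and from 318 to 520 in ZP with a difference of -0.10 ± 0.06 that missed the threshold (limma adjusted p = 0.124) and was -0.83 with median-ratio scaling.

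By position, 51 of the 78 genes lie within 500 kb of another one, in 12 groups, with the table's coordinates equal to those of the RefSeq assembly ASM3070453v1. The largest groups are the run of 9 stilbene synthases with an ANTHOCYANINLESS 2 gene and a glucosyltransferase at its ends on chromosome 16, 10 glucosyltransferases on chromosome 12 within 708 kb, and the 6 hydroxylases on chromosome 6. Neighbours did not all share a course. In the chromosome 12 group LOC100264156 rose from near 0 in ZP, whereas LOC100248109 peaked there at day 45 with 4.28 and 3.83 FPKM and stood at 0.207 and 0.0292 at day 61. LOC100262371 of the same group was highest in MH at day 61, with 3.87 and 3.04 FPKM against 0.912 and 0.840 in ZP. Likewise LOC100249635 on chromosome 6 stood at 13.6 and 11.6 FPKM in ZP at day 61 and near 0 in MH, while its neighbour LOC100249544 was highest in MH at day 35, at 3.50 and 3.13 FPKM.

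The 7 genes too low to be tested are LOC100243145, LOC104877273, LOC100262321, LOC132252568, LOC100261789, LOC100261365 and LOC100263140. None had a mean above 0.363 FPKM, and their highest libraries were ZP libraries in each case, with LOC100243145 at 1.36 FPKM at day 55 as the highest value among them.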

How the data were processed

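The authors' deposited table gives FPKM per gene and library, with coordinates and protein descriptions, per the file headers. The aligner, the counting tool and its use of strand are not given in the sources used here. Genes were placed in the study's groups by the library names in the header, and 0 columns of libraries were left unused. Of 13411 genes, 12540 (93.5%) matched RefSeq, all with equal coordinates. The members, lists and tests were chosen with earlier results of these data known.

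Differences were tested with limma 3.58.1 in R 4.3.3 (trend, empirical Bayes) on log2(FPKM + 1), with 1 mean for each of 8 groups and 8 residual degrees of freedom, over the 12637 genes that reached 1 FPKM in 2 libraries or more, and p-values were adjusted by Benjamini-Hochberg over all of them. The test was checked on simulated data. Errors are standard errors unless SD is written. Low values change little on this scale. Fragment numbers were estimated from the steps of low FPKM values, which 3353 genes (25%) showed, and cover counting error only.

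Named by rule were the member of each role with the highest mean FPKM (the 2 highest in roles of 4 or more), 3 given markers, and the 4 largest called rises and 4 largest called falls, averaged over days and over time in each variety, among members with a mean of 10 FPKM or more in a compared group. This gave 33 members, and all others named were chosen after their values were seen. Alternatives were a pseudocount of 0.1, no filter, a filter of 5 FPKM, median-ratio scaling, quantile normalization, a total without storage genes, a replicate block and leaving out each library. No sequences are shown.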

Additional observations from a re-analysis of the deposited data

Results flagged for a closer look

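The change from day 35 to day 61 differed between the varieties, by the limma test of the difference itself, in 22 of the 33 members named by rule. Over all genes tested 69.1% were called in this test and the median was 0.488, so that a call by itself sets no member apart. Values below are the ZP change minus the MH change on the log2(FPKM + 1) scale.

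Among the common enzymes the difference was -0.49 for CHI (limma adjusted p = 0.0153), -0.84 for LOC100232843 and -0.75 for LOC100263443, all with the higher change in MH. The CHI call was lost without replicate 2 of MH at day 61 (-0.44) and without replicate 2 of ZP at day 61 (-0.46). The LOC100263443 call was lost without replicate 2 of MH at day 35 (-0.50), replicate 1 of MH at day 61 (-0.69), replicate 1 of ZP at day 35 (-0.68) or replicate 2 of ZP at day 61 (-0.66). For LAR2 the difference was -1.86 and for LDOX it was 0.84, the latter not called with median-ratio scaling (0.29) or quantile normalization (0.36). It was 1.14 for LOC100257991.

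Relatives of these enzymes gave 5.22 for LOC100241597, 4.21 for LOC100254375, 3.03 for LOC100255535, 2.80 for LOC100246060 and -1.48 for LOC100247021. The stilbene synthases LOC100263437 and LOC100242994 gave 3.45 and 1.95, or 7.06 and 5.18 with a pseudocount of 0.1. The glucosyltransferases gave 3.42 for LOC100264156, 1.90 for LOC100251889, 1.56 for LOC100257268 and 1.23 for LOC100249635, and the malonyltransferases 1.66 for LOC100256273 and 0.93 for LOC100259716. With a pseudocount of 0.1 LOC100264156 gave 5.24 and LOC100259716 gave 1.41.

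Of the others, LOC100244875 gave 1.30 and LOC104879249 gave 1.20, the latter 0.61 and not called with quantile normalization. LOC100260889 gave 0.56, which was lost without replicate 1 of MH at day 35 (0.41), replicate 2 of MH at day 61 (0.54), replicate 1 of ZP at day 35 (0.52) or replicate 1 of ZP at day 61 (0.48). With 2 libraries a group no group was large enough to look for a library far from the rest.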

How the results depend on the processing

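Counts of members called were compared in 17 results. A filter of 5 FPKM keeps fewer genes, and members higher in ZP were then 25 at day 45, 25 at day 55, 23 at day 61 and 27 averaged over days. Under it 20 rose in ZP, the time change was higher in ZP for 21 and in MH for 7, and 37 had a variety by day interaction. With median-ratio scaling 22 were lower at day 61, 20 rose and 16 fell in MH, and the time change was higher in MH for 18. With quantile normalization these were 22, 21, 13 and 20. Leaving out 1 library at a time gave 49 to 50 higher and 17 to 18 lower averaged over days, 10 to 14 rising and 18 to 27 falling in MH and 33 to 39 rising in ZP. With the replicate number as a block 49 members were higher and 18 lower averaged over days, and no call of the 135 single values changed. In 28 pairs of groups the deviations of same-numbered libraries correlated between -0.597 and 0.728, 11 of them over 0.1, so the numbers were not taken to pair the libraries. In 7 of the 8 groups the mean of these correlations with the other groups was above 0, a hint from the data and not from the design.

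Single values turned in direction only under scaling. With median-ratio scaling the MH time change became 0.03 for ANR, 0.25 for LOC100255217, 0.04 for LOC100251889 and 0.10 for LOC100255589, and with quantile normalization 0.37 for LOC100251889 and 0.09 for LOC100256273. The averaged difference became -0.22 and -0.24 (median-ratio, quantile) for LOC100255535, -0.38 and -0.32 for LOC100247021 and -0.05 (median-ratio) for LDOX. The difference of time changes became -0.04 (quantile) for LOC100260889. The causes were not tested beyond the construction of each setting. Depth limits values under about 0.1 FPKM.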
